A study of Mus musculus with 30 samples.

Results

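FAD4T and wild-type (WT) thyroids of female mice aged 8 months were compared by poly(A) RNA sequencing. The 6 libraries were those titled as 8-month female FAD4T (3 libraries) and 8-month female WT (3 libraries), out of 30 thyroid libraries in the series. All mice are given as strain C57BL/6. Nothing in the labels explains the name FAD4T, its alleles or transgenes, the promoter behind them, or whether WT mice were littermates. The design text gives 3 mice for each group without mention of pooling, litters or dissection days. The p-values therefore reflect variation among these samples, which may be technical. The other 24 libraries are FAD4T and WT males of 8 months, FAD4T and WT females and males of 2 months, and, in an ageing set, WT males of 18 and 2 months, 3 each. The question is which thyroid transcripts differ between the genotypes in older females.

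The thyroid follicle takes up iodide, joins it to the protein thyroglobulin and stores the product until hormone is cut free. Scattered C cells between the follicles make calcitonin, and the parathyroid glands lie on or inside the thyroid. The gland rests on the windpipe beneath thin straps of skeletal muscle, so a dissected thyroid can hold transcripts of muscle, cartilage, fat, vessels and parathyroid beside its own. Skeletal muscle fibres are fast or slow, and each kind uses its own forms of myosin, troponin and calcium pump. Several slow-fibre genes are also the main forms of heart muscle.

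Counts assigned to genes were 15287425 to 15328669 per FAD4T library and 14083958 to 19438076 per WT library. Tg, the thyroglobulin gene, took 27.0%, 21.7% and 22.2% of them in FAD4T and 22.3%, 10.4% and 19.2% in WT. Transcripts of the mitochondrial genome took 2.83% to 2.97% of counts in FAD4T and 3.02% to 4.02% in WT. WT replicate 1 stood apart from the other WT libraries by low lung, heart and parathyroid transcripts, and WT replicate 2 by its low share of Tg. Levels below are CPM, counts scaled to a common library size. Log2 fold changes are FAD4T over WT, with the standard error (SE) or the 95% interval of edgeR's quasi-likelihood fit, and p-values are Benjamini-Hochberg adjusted over 18493 genes.

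Expression fell in 4 genes in FAD4T females and rose in 0 genes at adjusted p under 0.05, which is 0.0216% of the genes tested. The 4 genes fall into 2 kinds: Myh7 and Tnnc1 belong to the contractile apparatus of slow skeletal and heart muscle, and Umod and Slc34a1 to the kidney tubule. All lay under 6 CPM in every library, so each call rests on few counts. At an unadjusted p under 0.05 there were 277 higher genes (1.5%) and 585 lower ones (3.16%), together 862 (4.66%). DESeq2 called 77 genes, 4 higher and 73 lower, which included the same 4. Some of the 77 had very large fitted values, such as Rag1 at -20.4 with 0 counts in FAD4T. The count by edgeR was 0 without any 1 of the FAD4T libraries, 0 without WT replicate 2, 3 without WT replicate 3 and 9 without WT replicate 1.

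Myh7, the gene of the slow and cardiac myosin heavy chain (chr14:54970688-54994634, minus strand, GRCm38), had 0, 0 and 0.0689 CPM in FAD4T and 1.85, 2.55 and 3.09 CPM in WT. The groups did not overlap, and the summed counts were 1 in FAD4T and 118 in WT. The ratio of WT to FAD4T was 106, with a counting interval of 18.6 to 4205, and the fitted log2 fold change was -6.36 (SE 0.94, adjusted p = 0.0138 by edgeR). Myh6, its near-identical neighbour on the same strand, can share reads with it, and counting took no account of strand. Tnnc1, slow and cardiac troponin C (chr14:31208312-31211729, plus strand), had 0.219, 0.340 and 0.414 CPM in FAD4T and 1.12, 4.29 and 5.58 CPM in WT. Its log2 fold change was -3.47 (SE 0.59, adjusted p = 0.0381 by edgeR). WT replicate 1 was the lowest of the WT libraries for both genes and still lay above every FAD4T library.

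Umod, uromodulin of the thick ascending limb (chr7:119462711-119479282, minus strand), had 0 counts in all 3 FAD4T libraries and 1.69, 4.82 and 5.19 CPM in WT. With 3 counts over the FAD4T group as the limit that 0 allows, Umod was at least 54.0-fold lower in FAD4T (fitted log2 fold change -9.07, SE 1.24, adjusted p = 0.0138 by edgeR). Slc34a1, the proximal tubule sodium-phosphate cotransporter (chr13:55399648-55414695, plus strand), had 0 counts in FAD4T and 0.955, 2.88 and 1.38 CPM in WT. It was at least 24.2-fold lower (fitted log2 fold change -7.90, SE 1.14, adjusted p = 0.0381 by edgeR). A fitted value against 0 counts depends on the small prior count that edgeR adds. These intervals and limits cover counting error only.

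**Figure D1:**
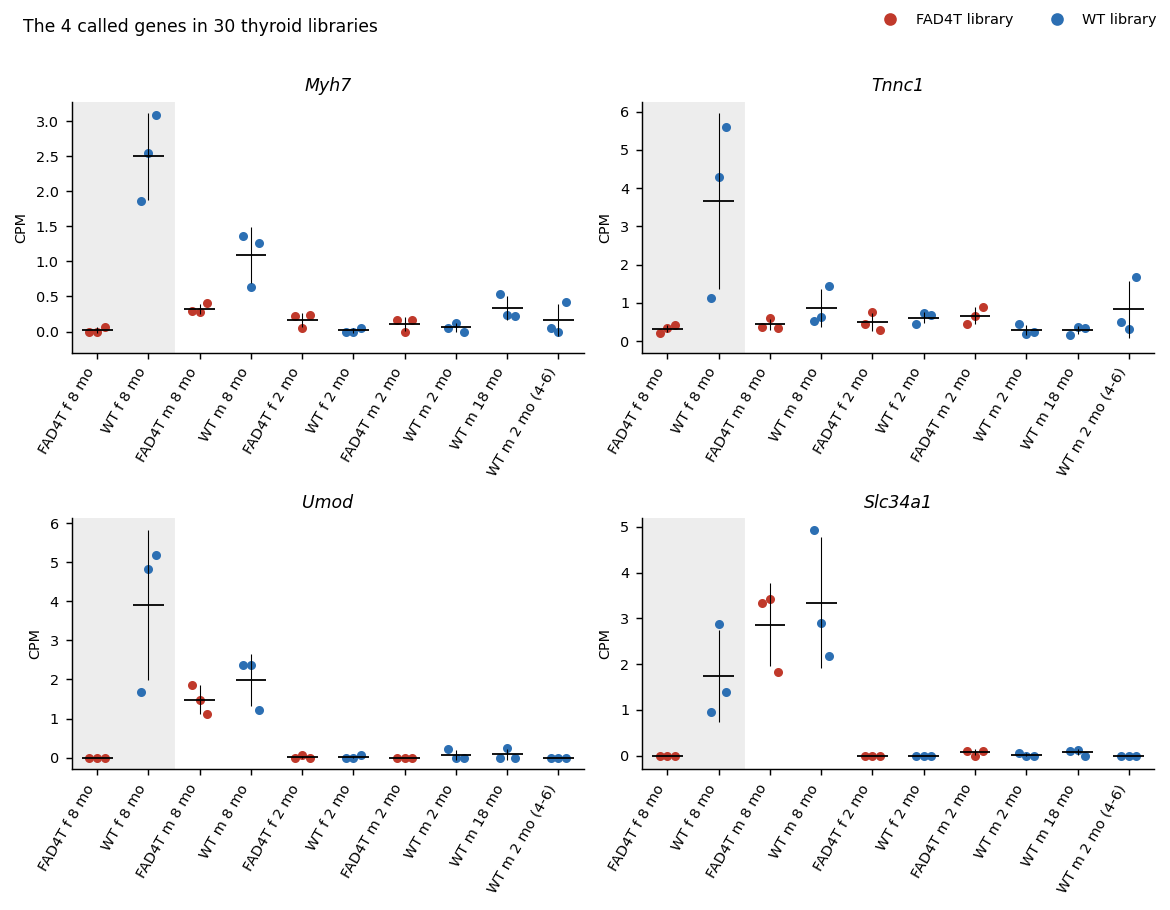
Levels in CPM (linear axes) of Myh7, Tnnc1, Umod and Slc34a1 in each of 30 thyroid libraries by group (f, female; m, male; mo, months). Points are libraries, horizontal bars are means and vertical lines 1 SD (n = 3), with the compared groups shaded. FAD4T females of 8 months lie at or near 0 for Umod, Slc34a1 and Myh7, while males of 8 months of both genotypes carry Umod and Slc34a1.

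The kidney genes had a pattern over the series that the 6 libraries alone do not show. In the 6 libraries of 8-month males, FAD4T and WT alike, Umod had 1.11 to 2.38 CPM and Slc34a1 1.82 to 4.94 CPM. In the 18 libraries of 2 and 18 months, Umod had at most 4 counts and Slc34a1 at most 2. The FAD4T females of 8 months thus lay with the libraries of other ages, and below the other 3 groups of 8 months. Kap, an androgen-responsive gene of the proximal tubule, followed the same split at higher levels. It had 0.0732, 0.0679 and 0 CPM in FAD4T females and 9.10, 1.94 and 0.0657 CPM in WT females, against 11.3 to 31.5 CPM in 8-month males. The Kap groups met at the lowest WT library, and Kap was not called by edgeR (adjusted p = 0.487).

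Of the 12 kidney list genes 11 passed the filter on low counts, 2 were called lower, and all 11 had a log2 fold change below 0, against 51.9% of all genes. The list's median log2 fold change was -4.99, or -2.65 with the genes at 0 in FAD4T set to their bound, against -0.01 over all genes. Slc12a1, the salt cotransporter of the thick ascending limb, had 0, 0 and 0.0689 CPM in FAD4T and 0.393, 0.804 and 1.71 CPM in WT (adjusted p = 0.202 by edgeR). Miox, which breaks down inositol in the proximal tubule, had 0.146, 0 and 0 CPM in FAD4T and 0.562, 2.68 and 3.81 CPM in WT (adjusted p = 0.296). Slc22a6, the organic anion transporter, was listed at 0 counts in FAD4T and at 0.225, 0.670 and 0.460 CPM in WT, at least 6.26-fold lower (adjusted p = 0.487). Cyp2j5, a cytochrome P450 of the tubule, overlapped, with 0.951, 1.29 and 1.10 CPM in FAD4T and 3.09, 1.0 and 0.854 CPM in WT. DESeq2 called 5 of the 11 lower, against 73 of all 18493 genes. The origin of kidney transcripts in thyroid libraries was not tested, whether from cells in the samples or not. In bulk samples, fewer cells of a type and less RNA per cell cannot be told apart.

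Liver transcripts, unlike those of kidney, were present in all 4 groups of 8 months. The mean log2(CPM + 1) of the liver list lay between 3.60 and 3.87 in FAD4T and between 3.47 and 4.86 in WT, its median log2 fold change was -0.40 and 0 of 14 members were called by edgeR or DESeq2. Apoc3, an apolipoprotein of liver, had 2.78, 3.33 and 3.03 CPM in FAD4T and 8.71, 3.35 and 3.94 CPM in WT. Sftpc, surfactant protein C of the lung alveolus, had 75.2, 105 and 74.2 CPM in FAD4T and 0.899, 65.7 and 94.1 CPM in WT, the groups overlapping. Sftpb, surfactant protein B, had 10.5, 10.5 and 10.6 CPM in FAD4T and 1.24, 7.17 and 11 CPM in WT. The lung alveolus list had a median of 0.64 with 8 of 9 members above 0, which was 0.20 without WT replicate 1 and 1.36 without WT replicate 3. As a level, the lung list lay at 4.41 to 4.70 in FAD4T females, at 2.87 to 4.59 in WT females and at 2.71 to 3.39 in males of 8 months. The part of the dissected tissue in any of these results was not tested.

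**Figure D2:**
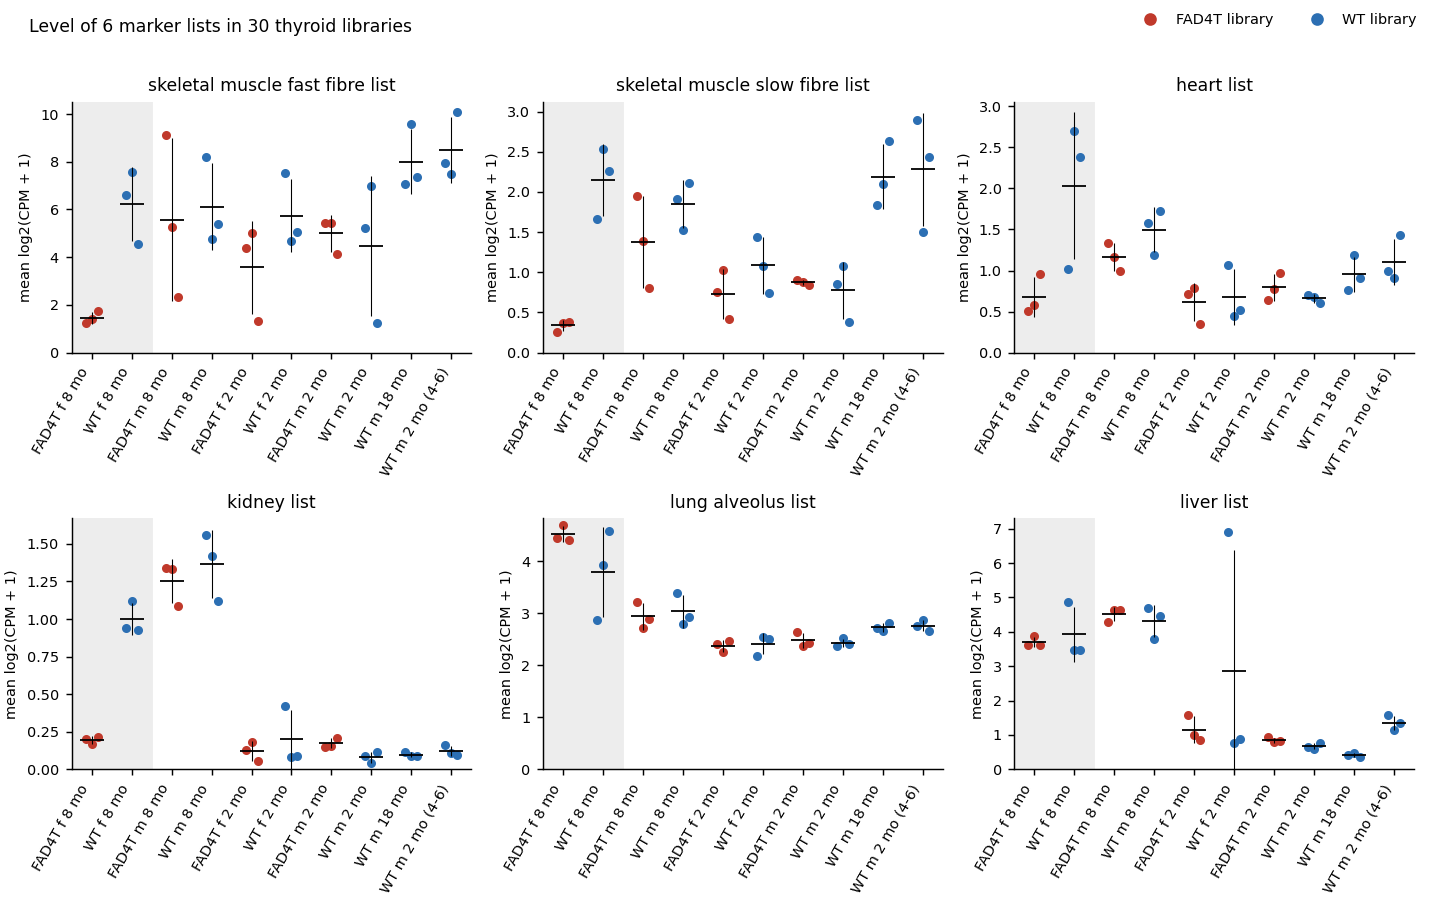
Level of 6 marker lists, as the mean of log2(CPM + 1) over the members, in each of 30 libraries by group (f, female; m, male; mo, months). Points are libraries, horizontal bars are means and vertical lines 1 SD (n = 3), with the compared groups shaded. The FAD4T females of 8 months lie below the WT females for the muscle and kidney lists and near the 2-month libraries for kidney, while the liver ranges overlap.

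Skeletal muscle transcripts as a whole were lower in FAD4T than in WT females, in every library of the group. Of 46 members of the fast fibre, slow fibre and shared muscle lists 44 were tested, all 44 had a log2 fold change below 0, and in 41 every FAD4T library lay below every WT library (7.02% of all genes). An unadjusted p under 0.05 was reached by 39 of them, all lower (3.16% of all genes), yet edgeR called 2. DESeq2 called 10 of 12 fast, 6 of 9 slow and 13 of 23 shared members lower, against 73 of all 18493 genes. The muscle level, the mean log2(CPM + 1) over the 3 lists, was 1.17, 1.29 and 1.48 in FAD4T and 4.86, 5.79 and 3.68 in WT. The difference was -3.46 (exact 2-sided permutation test, p = 0.1, the smallest that 3 against 3 allows). Single libraries of other groups were as low, with WT male 2 months replicate 3 at 1.20 and FAD4T female 2 months replicate 3 at 1.27. The spread within other groups differed. It ran from 1.20 to 5.02 in WT males of 2 months, 1.91 to 6.79 in FAD4T males of 8 months and 2.91 to 3.87 in FAD4T males of 2 months.

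In WT females the fast fibre list had a higher mean level than the slow and shared lists, and in FAD4T females the shared list did. Myh1, a fast myosin heavy chain, had 0.805, 0.883 and 1.17 CPM in FAD4T and 164, 326 and 24.9 CPM in WT (log2 fold change -7.48, 95% interval -12.2 to -2.71, adjusted p = 1 by edgeR). Pvalb, the calcium buffer parvalbumin, had 0.951, 1.15 and 1.86 CPM in FAD4T and 212, 543 and 46.1 CPM in WT. WT replicate 3 was the lowest of the WT libraries in both, and it still lay above each FAD4T library. Myoz1, a Z-disc protein of fast fibres, had 0.219, 0.340 and 0.414 CPM in FAD4T and 49.3, 112 and 10.4 CPM in WT. The fast fibre list's median log2 fold change was -7.21, and it was -0.58 when the muscle level was entered as a covariate of the fit. With that covariate the shared list's median was -0.44 and the slow fibre list's -3.24. The members of the 3 lists are part of that level, and the level did not overlap between the groups. A smaller median was thus built into that fit and says nothing about a cause.

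Genes common to all skeletal fibres had the same direction. Acta1, skeletal actin, had 3.80, 3.19 and 3.79 CPM in FAD4T and 552, 1019 and 100.3 CPM in WT. Ckm, muscle creatine kinase, had 0.878, 0.476 and 1.03 CPM in FAD4T and 153, 311 and 31.1 CPM in WT. Ckmt2, its mitochondrial relative, had 0.0732, 0.136 and 0.345 CPM in FAD4T and 15.4, 36.5 and 6.37 CPM in WT. The shared list's median was -5.21, and 20 of its 23 members had an unadjusted p under 0.05. In the 24 libraries of the other groups, 36 of the 44 muscle genes followed the muscle level within their group (Pearson's r of 0.5 or more), against 5.39% of all genes. Each of these genes is itself part of the muscle level, which raises its r, so the 2 shares are not a like comparison. By list, 12 of 12 fast, 22 of 23 shared and 2 of 9 slow fibre members reached that r. None of the 4 called genes reached that r, but their counts in those libraries were low, which limits the r they could reach. Myh7 had at most 23 counts per library and Tnnc1 at most 25. Umod and Slc34a1 had at most 4 and 2 counts at 2 and 18 months.

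Among slow-fibre genes also used by the heart, Myl2 and Myl3 were low in WT replicate 1, while Myoz2 and Casq2 did not set that library apart. Myl2, slow and ventricular myosin light chain, had 0, 0.136 and 0 CPM in FAD4T and 1.4, 20.9 and 21.5 CPM in WT (log2 fold change -8.09, SE 1.36, adjusted p = 0.0534 by edgeR, and called without WT replicate 1, adjusted p = 0.00346). Myl3, the matching essential light chain, was at 0 counts in FAD4T and 1.01, 8.17 and 9.79 CPM in WT, at least 86.2-fold lower (adjusted p = 0.202). Myoz2, a Z-disc protein of slow fibres and heart, had 0, 0.0679 and 0 CPM in FAD4T and 2.47, 4.15 and 2.63 CPM in WT (adjusted p = 0.672). Casq2, the calcium store protein calsequestrin of heart and slow fibres, had 1.98, 2.65 and 1.93 CPM in FAD4T and 3.43, 4.35 and 4.93 CPM in WT. The slow fibre list had 9 of 10 members tested, 2 called lower, 8 with an unadjusted p under 0.05 and a median of -6.36.

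Of the genes used mainly by the heart, Myh6, Mybpc3 and Tnnt2 were low in WT replicate 1, and Nppa was not. Myh6, the alpha myosin heavy chain of heart, had 0.585, 0.272 and 2.07 CPM in FAD4T and 0.843, 42.2 and 44.4 CPM in WT, and was not called (adjusted p = 0.291 by edgeR). Mybpc3, cardiac myosin-binding protein C, had 0.0732, 0.204 and 0.138 CPM in FAD4T and 0.281, 7.97 and 8.74 CPM in WT (adjusted p = 0.167). Tnnt2, cardiac troponin T, had 0.146, 0.272 and 1.52 CPM in FAD4T and 1.4, 17.3 and 19.8 CPM in WT (adjusted p = 0.691). The atrial peptide gene Nppa had 0.146, 0.204 and 0.0689 CPM in FAD4T and 0.843, 0.804 and 0.985 CPM in WT. Of 8 heart list members tested 0 were called, 6 had an unadjusted p under 0.05 in the lower direction, and the median was -3.61. Without WT replicate 1, edgeR called Myh6 and Mybpc3 too (adjusted p = 0.00346 each). On all libraries DESeq2 called 3 of the 8 lower, against 73 of all 18493 genes.

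Of 9 genes of the neuromuscular junction and myogenic regulators tested, 9 were below 0 with a median of -1.84, 2 had an unadjusted p under 0.05, and 3 were at 0 counts in FAD4T. Myf6, a myogenic transcription factor of mature fibres, was at 0 counts in FAD4T and 2.47, 6.23 and 0.197 CPM in WT. Mstn, the muscle growth inhibitor myostatin, was at 0 counts in FAD4T and 1.52, 4.49 and 0.460 CPM in WT. Both were lower in every FAD4T library than in any WT one, by at least 41.7-fold and 30.1-fold, and neither was called by edgeR (adjusted p = 1), while DESeq2 called both lower (adjusted p = 0.0169 for Myf6 and 0.0265 for Mstn). The receptor subunit gene Chrna1, which nerve-contacted muscle carries, overlapped at 1.10, 1.70 and 1.59 CPM in FAD4T and 1.91, 4.76 and 1.05 CPM in WT.

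The transcription factor MEF2 binds an AT-rich site in the promoters of many muscle genes, so RefSeq promoters (GRCm38.p6, 250 bases before to 50 after each gene's start) were searched on both strands for CTA and TAG with 4 bases of any kind between them. The letters occurred in 8 of the 42 promoters (19%) that the table holds for 35 muscle list genes, in 1 of 10 of the kidney list, and in 3.69% of all 32851 promoters. They did not occur in the 5 promoters of the 4 called genes, 3 of which belong to Myh7 and Tnnc1. The sequences are shown to set 3 muscle promoters with the letters beside 2 called genes without them, read on the gene's own strand with the match in capitals. A match is a description of letters, not a binding site. They lie at chr3:123034938-123035237 (minus strand), chr2:76982498-76982797 (minus), chr2:69669870-69670169 (plus), chr14:31208062-31208361 (plus) and chr7:119479213-119479512 (minus).
Myoz2: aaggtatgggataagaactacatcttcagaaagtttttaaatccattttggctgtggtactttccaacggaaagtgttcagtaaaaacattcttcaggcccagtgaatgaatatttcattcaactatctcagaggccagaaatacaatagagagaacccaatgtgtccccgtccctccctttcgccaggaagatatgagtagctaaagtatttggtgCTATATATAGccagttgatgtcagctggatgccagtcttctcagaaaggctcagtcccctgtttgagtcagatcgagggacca
Ttn: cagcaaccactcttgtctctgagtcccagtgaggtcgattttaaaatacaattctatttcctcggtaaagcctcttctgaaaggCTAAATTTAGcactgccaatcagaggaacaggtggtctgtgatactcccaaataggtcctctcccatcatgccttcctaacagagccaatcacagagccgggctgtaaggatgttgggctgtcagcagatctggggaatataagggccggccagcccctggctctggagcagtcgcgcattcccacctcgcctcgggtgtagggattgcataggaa
Klhl41: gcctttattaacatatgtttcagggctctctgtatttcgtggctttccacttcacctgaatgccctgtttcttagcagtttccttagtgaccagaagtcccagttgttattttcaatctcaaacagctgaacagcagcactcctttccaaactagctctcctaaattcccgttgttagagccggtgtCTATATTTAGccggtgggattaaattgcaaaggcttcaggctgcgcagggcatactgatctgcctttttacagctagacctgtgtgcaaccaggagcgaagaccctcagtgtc
Tnnc1: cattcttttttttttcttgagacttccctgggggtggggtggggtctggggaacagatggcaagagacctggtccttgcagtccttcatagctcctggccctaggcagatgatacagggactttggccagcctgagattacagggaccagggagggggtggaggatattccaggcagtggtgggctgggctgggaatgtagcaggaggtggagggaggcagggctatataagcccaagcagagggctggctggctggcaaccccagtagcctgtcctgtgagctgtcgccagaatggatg
Umod: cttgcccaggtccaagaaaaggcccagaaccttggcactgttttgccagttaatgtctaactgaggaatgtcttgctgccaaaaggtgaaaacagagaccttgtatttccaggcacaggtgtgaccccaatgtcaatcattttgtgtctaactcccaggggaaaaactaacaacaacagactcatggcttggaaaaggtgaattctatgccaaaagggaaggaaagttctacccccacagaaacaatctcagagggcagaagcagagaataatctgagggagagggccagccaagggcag
The match starts 33 bases before the gene's start in Myoz2, 166 before it in Ttn, the giant spring protein of the sarcomere, and 63 before it in Klhl41, a stabiliser of the sarcomere. All 3 were lower in every FAD4T library, with log2 fold changes of -6.66 in Myoz2, -5.95 in Ttn and -4.72 in Klhl41, and none was called by edgeR.

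**Figure D3:**
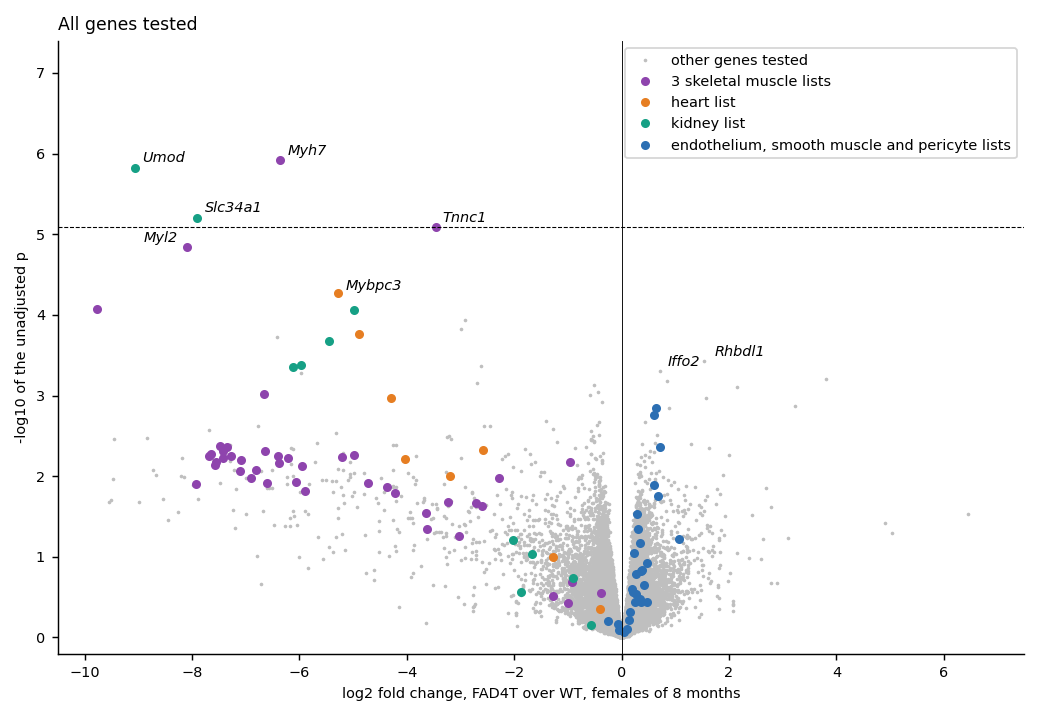
Each point is 1 of 18493 genes, with the log2 fold change (FAD4T over WT, females of 8 months) on the horizontal axis and minus log10 of the unadjusted p on the vertical axis. Colours mark muscle, heart, kidney and vessel lists, and genes on or above the dashed line have an adjusted p under 0.05. The 4 called genes lie at the upper left, and many muscle genes with larger fold changes lie lower on the vertical axis.

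The respiratory chain passes electrons to oxygen in mitochondria, and none of its genes passed the test. Of 79 nuclear genes for complexes I to IV and ATP synthase, 79 had a log2 fold change below 0 (51.9% of all genes). Their median was -0.36, with a range of -1.15 to -0.02. An unadjusted p under 0.05 was reached by 39, all lower (3.16% of all genes). In 44 of the 79 every FAD4T library lay below every WT library (7.02% of all genes). None was called by edgeR or DESeq2, and the smallest adjusted p was 1. Ndufs4, a complex I subunit, had 74.0, 76.8 and 67.3 CPM in FAD4T and 102, 107 and 84.7 CPM in WT (log2 fold change -0.43, 95% interval -0.70 to -0.16). Ndufa12, a further complex I subunit, had 48.8, 57.3 and 57.6 CPM in FAD4T and 81.2, 93.6 and 63.1 CPM in WT. Uqcr10 of complex III had 65.4, 76.8 and 70.0 CPM in FAD4T and 115, 110.4 and 78.4 CPM in WT. Cox7b of complex IV had 122, 133 and 114 CPM in FAD4T and 175, 207 and 148 CPM in WT. The subunit genes named here were lower in all FAD4T libraries, with WT replicate 3 nearest to them. In 8-month males 31 of 36 complex I members and 14 of 14 of complexes II and III were below 0 as well. So were 13 of 13 of complex IV and 13 of 16 of ATP synthase (47.8% of all genes). In 2-month females 23, 12, 10 and 14 of them were, in the same order (51.8% of all genes).

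The listed ribosomal protein genes were below 0 too, and 0 of them were called by edgeR or DESeq2. Outside the lists, DESeq2 called the mitochondrial ribosomal protein gene Mrpl30 lower (log2 fold change -0.44, adjusted p = 0.0283 by DESeq2). All 114 tested members of the cytosolic and mitochondrial lists were below 0, with a median of -0.30. Of these 24 had an unadjusted p under 0.05 (3.16% of all genes were lower at that p) and in 49 every FAD4T library lay below every WT library (7.02% of all genes). In 8-month males, 39 of 45 large-subunit, 32 of 32 small-subunit and 24 of 37 mitochondrial members were below 0 as well (47.8% of all genes), and in 2-month females 34, 28 and 29 of them were (51.8% of all genes). Rps27 of the small subunit had 191, 244 and 203 CPM in FAD4T and 262, 306 and 255 CPM in WT (log2 fold change -0.37, 95% interval -0.67 to -0.07). Mrpl14, a mitochondrial ribosomal protein, had 17.5, 16.1 and 16.9 CPM in FAD4T and 31.0, 23.7 and 19.5 CPM in WT. Rplp1, a stalk protein of the large subunit, had 262, 296 and 296 CPM in FAD4T and 379, 424 and 321 CPM in WT. Of the mitochondrial genome's own 13 transcripts 11 were below 0, with a median of -0.29. In 3 of the 13 every FAD4T library lay below every WT library (7.02% of all genes). In 2 every FAD4T library lay above every WT library (5.96% of all genes). The others overlapped, such as mt-Co2 with 34.5, 36.8 and 31.3 CPM in FAD4T and 42.5, 56.1 and 34.4 CPM in WT.

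The length of a gene moved with these differences. Among genes of at least 5 CPM in either group, split into 4 equal groups by length, 78.4% of the shortest group (summed exon length up to 2702 bases) had a log2 fold change below 0 and 27.0% of the longest group did. The medians were -0.14 in the shortest group, -0.00 and 0.05 in the middle groups and 0.10 in the longest. A rise with length was also present in females of 2 months, whose medians were -0.14, -0.11, -0.05 and -0.01 from the shortest to the longest group. In males of 8 months they were -0.03, -0.01, 0.01 and 0.03. Of the respiratory chain genes 60 of 79, and of the ribosomal ones 84 of 114, were within that shortest group's limit. With the muscle level as a covariate the median of complex I was -0.16, against -0.37 without. That of the cytosolic large subunit was -0.31, against -0.30 without. The muscle level did not overlap between the compared groups, so within these 6 libraries it cannot be told apart from genotype. Neither part was tested further.

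**Figure D4:**
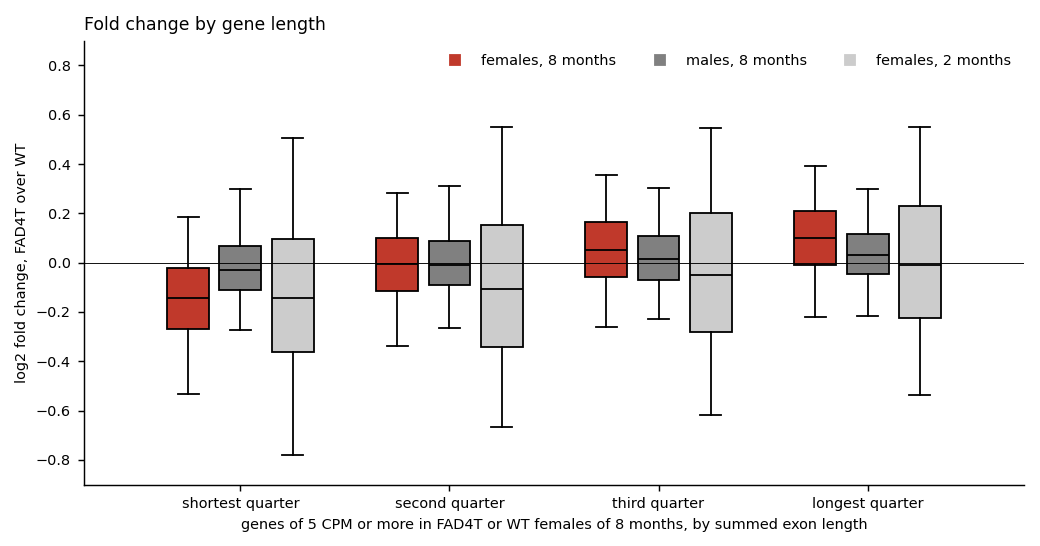
Log2 fold change (FAD4T over WT) of genes of at least 5 CPM in FAD4T or WT females of 8 months, in 4 equal groups of summed exon length, for females of 8 months, males of 8 months and females of 2 months. Boxes span the quartiles with the median as a line, and whiskers the 5th to 95th percentile of genes. In females of 8 months the box moves upward with length, from a median of -0.14 to 0.10.

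Genes of the vessel wall lay on the other side. The smooth muscle and pericyte list had a median of 0.41 with 10 of 12 members above 0 and 5 with an unadjusted p under 0.05 in that direction (1.5% of all genes), and the endothelium list had 0.26 with 16 of 18 above 0 (47.9% of all genes). None was called by edgeR or DESeq2. In 8-month males the medians of these 2 lists were 0.21 and 0.17, with 2 of 12 and 3 of 18 below 0 (47.8% of all genes). In 2-month females they were -0.03 and -0.05, with 6 and 11 below 0 (51.8% of all genes). The median length of these genes was 4629 bases, with 5 of 30 within the limit of the shortest group by length. The part of length in their values was not tested. Myh11, smooth muscle myosin, had 79.7, 66.0 and 75.0 CPM in FAD4T and 61.6, 34.7 and 45.9 CPM in WT (log2 fold change 0.63, 95% interval 0.28 to 0.99, adjusted p = 0.807 by edgeR). Notch3, the receptor that pericytes and vascular smooth muscle carry, had 47.2, 37.1 and 49.1 CPM in FAD4T and 32.9, 22.7 and 32.0 CPM in WT (adjusted p = 0.946). Acta2, smooth muscle actin, had 62.5, 50.4 and 80.9 CPM in FAD4T and 43.0, 36.3 and 41.5 CPM in WT. For these 3 genes each FAD4T library lay above each WT library (5.96% of all genes did so). Des, which smooth and skeletal muscle share, went the other way with 9.36, 9.31 and 9.31 CPM in FAD4T and 77.2, 158 and 27.1 CPM in WT.

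In the endothelium the groups lay closer. Vwf, the von Willebrand factor gene, had 43.2, 34.0 and 52.9 CPM in FAD4T and 34.5, 19.8 and 25.3 CPM in WT, overlapping at WT replicate 1. Tie1, an endothelial receptor kinase, had 59.5, 58.2 and 60.0 CPM in FAD4T and 56.0, 37.7 and 49.2 CPM in WT. The Notch signalling list had a median of 0.22 with 13 of 18 above 0. Maml1, a coactivator of Notch, had 31.5, 28.9 and 30.1 CPM in FAD4T and 27.0, 21.8 and 25.6 CPM in WT, whereas its target Hes1 overlapped at 60.7, 81.4 and 43.2 CPM in FAD4T and 89.6, 81.9 and 75.2 CPM in WT. Without FAD4T replicate 3 the endothelium median was 0.11, and without WT replicate 2 it was 0.14.

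Among genes of higher level in FAD4T, none was called by edgeR. Iffo2, an intermediate filament relative, had 20.6, 18.7 and 17.4 CPM in FAD4T and 9.89, 10.9 and 13.6 CPM in WT (log2 fold change 0.72, SE 0.17, adjusted p = 0.516 by edgeR). Col14a1, a fibril-associated collagen, had 21.7, 21.5 and 36.7 CPM in FAD4T and 15.6, 13.3 and 15.3 CPM in WT (log2 fold change 0.85, SE 0.21, adjusted p = 0.579). Rhbdl1, a rhomboid protease relative, had 1.68, 1.77 and 3.45 CPM in FAD4T and 0.786, 0.603 and 0.985 CPM in WT (log2 fold change 1.53, adjusted p = 0.487). DESeq2 called these 3 genes higher. Eln, elastin, had 30.5, 27.4 and 45.1 CPM in FAD4T and 24.3, 23 and 23.5 CPM in WT. Over collagens, matrix glycoproteins, fibroblast and focal adhesion lists, 63 of 74 members were above 0 (47.9% of all genes) with a median of 0.16, and 0 were called by edgeR, with 5 higher at an unadjusted p under 0.05 (1.5% of all genes). These are long genes, with a median length of 6090 bases and 5 within the limit of the shortest group by length, and the part of length in their values was not tested. Fibroblast markers themselves overlapped, as Pdgfra had 39.1, 39.1 and 29.0 CPM in FAD4T and 35.0, 31.9 and 28.2 CPM in WT.

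Thyroid genes did not pass the test in either direction. Tg had 303047, 225509 and 234656 CPM in FAD4T and 243076, 98217 and 189460 CPM in WT, with a log2 fold change of 0.52 (95% interval -0.63 to 1.68). Slc5a5, the iodide importer, had 588, 111 and 397 CPM in FAD4T and 287, 234 and 127 CPM in WT, the widest spread among these genes (log2 fold change 0.76, 95% interval -0.47 to 1.99). Duox2, which makes the hydrogen peroxide for iodination, had 85.1, 53.3 and 68.2 CPM in FAD4T and 59.8, 35.8 and 48.5 CPM in WT and was the 1 member of the hormone synthesis list with an unadjusted p under 0.05. Tshr, the thyrotropin receptor, had 125, 56.5 and 58.5 CPM in FAD4T and 105, 55.3 and 53.8 CPM in WT, with replicate 1 high in both groups. Pax8, a transcription factor of thyroid identity, had 559, 398 and 338 CPM in FAD4T and 449.9, 329 and 382 CPM in WT. Over the 4 thyroid lists 0 of 44 members were called, 28 were above 0 and the median was 0.06.

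C cell and parathyroid genes were not called either. Calca, the calcitonin gene, was lower in each FAD4T library, at 2739, 3948 and 3300 CPM in FAD4T and 4199, 4233 and 4083 CPM in WT, with a log2 fold change of -0.33 (95% interval -0.83 to 0.17). The C cell list's median was -0.18, with 10 of 12 below 0. Pth, parathyroid hormone, had 158, 12544 and 16723 CPM in FAD4T and 61.0, 35975 and 12310 CPM in WT. Replicate 1 of each group was thus low, as it was for Gcm2, the parathyroid transcription factor, with 1.46, 112 and 188 CPM in FAD4T and 0.786, 259 and 115 CPM in WT. The 95% interval for Pth was -5.35 to 3.91 on the log2 scale.

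App, the amyloid precursor protein gene, had 1260, 975 and 1007 CPM in FAD4T and 1085, 715 and 963 CPM in WT (log2 fold change 0.23, SE 0.26, adjusted p = 1 by edgeR). Mapt, the tau gene, had 6.80, 7.47 and 7.79 CPM in FAD4T and 6.52, 8.98 and 8.93 CPM in WT. Thy1 and Prnp, whose promoters often drive transgenes in brain, had log2 fold changes of -0.09 (95% interval -1.11 to 0.94) and 0.03 (-0.21 to 0.27). Bace1, beta-secretase, lay higher in each FAD4T library, with 68.8, 58.1 and 59.5 CPM in FAD4T and 50.1, 35.2 and 56.7 CPM in WT, and Adam10, the main alpha-secretase, did too, with 85.7, 76.0 and 75.6 CPM in FAD4T and 66.5, 65.2 and 72.5 CPM in WT. Neither was called, and the list of App, secretases and homologues had a median of 0.10 over 15 genes. Since the labels do not say what FAD4T carries, no gene could check them. The female libraries carried Xist, which silences an X chromosome, at 458, 675 and 553 CPM in FAD4T and 389, 909.7 and 683 CPM in WT, and little of the Y-linked Ddx3y, at 0.585, 0.544 and 0.689 CPM in FAD4T and 1.29, 1.0 and 1.12 CPM in WT.

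Immune genes lay near 0 as groups. Of 120 members of 8 immune lists 59 were above 0 and 60 below, the median was -0.00 and 0 were called by edgeR, with 2 higher and 3 lower at an unadjusted p under 0.05. Ciita, the switch of MHC class II genes, had 8.49, 4.96 and 5.86 CPM in FAD4T and 3.65, 2.41 and 4.53 CPM in WT (log2 fold change 0.86, 95% interval 0.22 to 1.5, adjusted p = 1). C7, a late complement component, had 2.63, 3.19 and 4.89 CPM in FAD4T and 1.91, 1.21 and 2.04 CPM in WT. Ltf, lactoferrin of neutrophils and glands, had 1.68, 0.815 and 0.827 CPM in FAD4T and 42.1, 1.88 and 8.08 CPM in WT. Rag1, the thymocyte recombinase, called lower by DESeq2, was at 0 counts in FAD4T and at 0, 0.0670 and 2.23 CPM in WT.

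Of 13 airway epithelium genes tested 11 were below 0, with a median of -0.39, 1 had an unadjusted p under 0.05, and 0 were called by edgeR or DESeq2. Bpifa1, an airway surface protein, was lower in every FAD4T library at 14.0, 2.45 and 5.17 CPM in FAD4T, against 81.5, 19.4 and 47.2 CPM in WT (log2 fold change -2.78, 95% interval -4.98 to -0.58, adjusted p = 1 by edgeR). White fat genes overlapped, Cfd (adipsin) having 744, 459 and 491 CPM in FAD4T and 918, 809 and 479 CPM in WT. Ucp1, the uncoupling protein of brown fat, had 74.7, 46.3 and 15.8 CPM in FAD4T and 127, 76.0 and 51.9 CPM in WT (log2 fold change -0.90, 95% interval -2.10 to 0.30). Among immediate early genes, Ier2 had 22.9, 21.3 and 17.1 CPM in FAD4T and 30.0, 28.8 and 28.3 CPM in WT, and Fos overlapped at 16, 7.07 and 8.96 CPM in FAD4T and 13.9, 24.5 and 40.4 CPM in WT. Clock genes had a median of -0.03 and cell cycle genes 0.04. Over all 62 lists, 2 held a gene called by edgeR, 8 one called by DESeq2, and 55 had a median within 0.5 of 0.

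**Figure D5:**
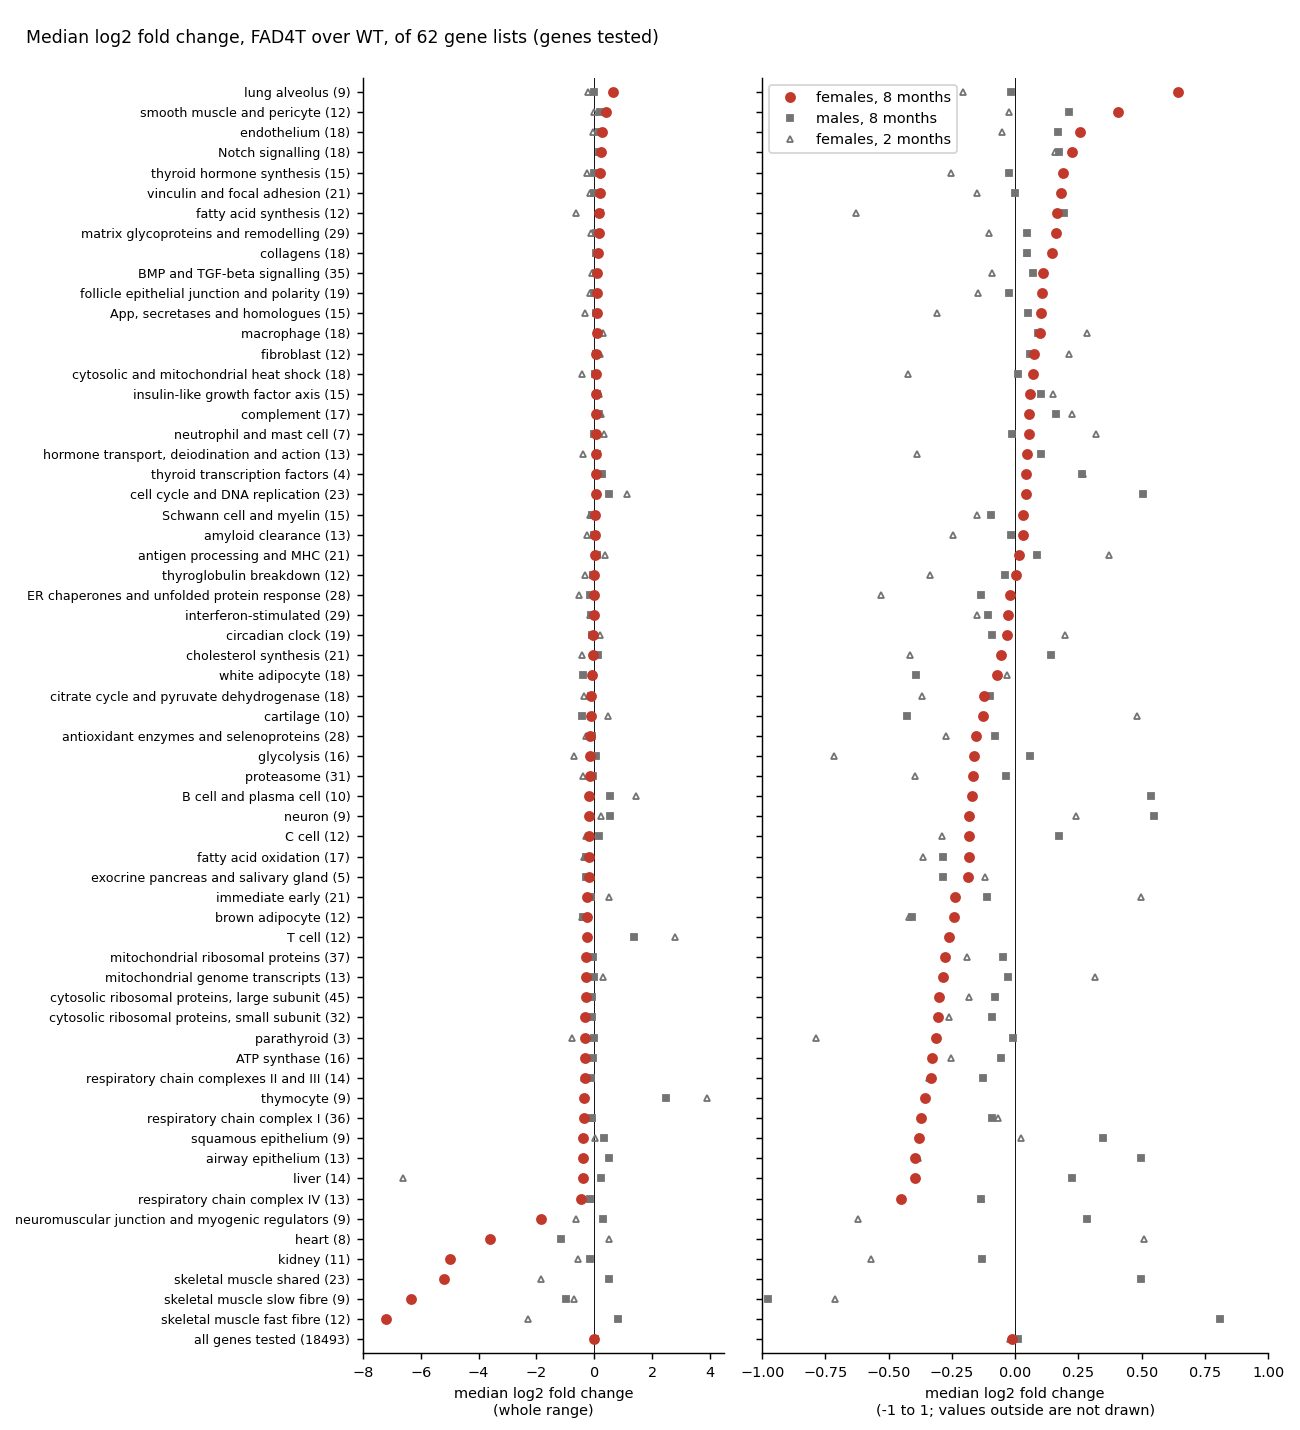
Median log2 fold change (FAD4T over WT) of 62 gene lists and of all 18493 genes, the number tested in parentheses, for females of 8 months (red circles), males of 8 months (grey squares) and females of 2 months (open triangles). The left axis shows the whole range and the right one -1 to 1, where values outside are not drawn. In females of 8 months the muscle, kidney and heart lists lie between -7.21 and -3.61, and most of the others within 0.5 of 0.

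The same genotype difference in 8-month males and in 2-month females rests on other libraries. For Myh7 the log2 fold change was -6.36 in 8-month females and -1.71 (SE 0.66) in 8-month males. In 2-month females Myh7 had 1 to 4 counts per FAD4T library and 0 to 1 per WT library, too few for a fold. For Umod the log2 fold change was -9.07 in 8-month females and -0.43 (SE 0.63) in 8-month males, and for Slc34a1 -7.90 and -0.22 (SE 0.54). The fast fibre list's median was 0.81 in 8-month males, with 0 of 12 members below 0 (47.8% of all genes). In 2-month females it was -2.30, with 12 of 12 below 0 (51.8% of all genes). The shared muscle list had 0.50 in 8-month males (3 of 23 below 0) and -1.86 in 2-month females (23 of 23). The slow fibre list had -0.98 in 8-month males (7 of 9 below 0) and -0.71 in 2-month females (8 of 9). The heart list had -1.16 in 8-month males (6 of 8 below 0) and 0.51 in 2-month females (1 of 8). The kidney list's median was -0.13 in 8-month males.

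The difference between females and males of 8 months in the FAD4T effect was tested as an interaction, and 0 genes were called by edgeR (0%), with 369 at an unadjusted p under 0.05 (2%). Umod had the smallest p, with an interaction of -8.64 on the log2 scale (SE 1.49, adjusted p = 0.46), and Slc34a1 followed with -7.68 (SE 1.35, adjusted p = 0.468). DESeq2 called 9 genes, all lower, Umod and Slc34a1 among them. The others had fitted values of -28.2 to -21.4 on the log2 scale, a size that fits against 0 counts take. Rag1, at -28.2, had 0 counts in FAD4T females. The interaction with age in females also gave 0 called genes by edgeR (0%), with 1520 at an unadjusted p under 0.05 (8.22%). DESeq2 called 16, and fitted values of that size were among them too, such as -38 for Lcn3 and 22.1 for Akr1d1. Also among the 16 were Myh7 (-9.66, adjusted p = 0.000451 by DESeq2) and Mmd2 (-5.37, adjusted p = 2.36e-05 by DESeq2). So were Myl3 at -8.22, Zfp503 at -0.61 and Zscan22 at 1.09. By edgeR Myh7 came nearest, with -9.08 (SE 1.46, adjusted p = 0.077), and Mmd2 followed, with -5.34 (SE 0.92, adjusted p = 0.0919). The Myh7 values of both tools draw on those few counts at 2 months. Mmd2, a membrane protein gene, had 1.02, 2.24 and 2.27 CPM in FAD4T and 16.3, 10.9 and 6.90 CPM in WT at 8 months, each FAD4T library below each WT library. A difference of the FAD4T effect between sexes or ages was thus called for 0 genes by edgeR.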

How the data were processed

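RNA was extracted with Trizol, poly(A) selected and sequenced in pairs, per the labels' protocols. The authors deposited whole-number counts per gene, made with featureCounts 1.6.0 on GRCm38 with Ensembl release 88 and without strand, per the file headers. The submitters' processing notes differ: they name GRCm39, HISAT2 2.0.4 as well as StringTie 1.3.4d, and also cutadapt 1.9, so it is not settled which step made these counts. Of 50686 gene IDs 50376 matched a symbol. Totals were 14083958 to 20256049 counts over 30 libraries.

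From these counts, edgeR 4.0.16 (R 4.3.3, quasi-likelihood test, TMM scaling, filter with a minimum count of 10, robust, Benjamini-Hochberg adjustment) fitted 24 libraries with a mean per group, leaving out the ageing set (residual df 16, common BCV 0.298). DESeq2 1.42.0 was an alternative. CPM is TMM-scaled. List levels are the mean of log2(CPM + 1). Named genes were those with groups that do not overlap and an adjusted p under 0.05 at 5 CPM or more, or, where fewer than 3 passed, the 5 smallest p each way, with and without genes that follow the muscle level. To these came up to 5 members of each list by smallest p, a fixed set (App, Tg, Xist and the like) and the 5 smallest p of each interaction. Casq2, Cyp2j5, Kap, Klhl41, Sftpc and Ttn lie outside that rule and were chosen after their values were seen. The members and the 62 lists were chosen with earlier results of these data known, and support nothing by themselves. The scripts were tested on simulated data. Some genes that the rule names are not reported here.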

Additional observations from a re-analysis of the deposited data

How the results depend on the processing

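The 4 calls became 77 with DESeq2, 0 with the muscle level as a covariate (683 at an unadjusted p under 0.05) and 0 with the 6 libraries alone (1107 unadjusted). Leaving out 1 replicate of the 6 gave 0 to 9 calls. On the log2 scale, over 15 settings, the fold change of Myh7 lay between -8.44 and -5.88, Umod between -9.43 and -8.24, Slc34a1 between -8.20 and -7.02, and Tnnc1 between -3.90 and -3.02. With the 12 libraries of 8 months alone, an alternative chosen after seeing the data, edgeR called 4 genes, 3 of them among the same 4. Same-numbered libraries had correlations of deviations of 0.46, 0.22 and 0.04, and unlike-numbered ones lay between -0.45 and 0.34. These values do not settle whether the numbers mark pairs, and the main fit did not take them as such. The replicate block gave 76 calls with the 6 libraries alone and 1 call with 24 libraries, the last chosen after seeing the data. For the difference between sexes, the count of 0 became 9 with DESeq2, 2 with no filter on low counts and 1 with 12 libraries and the replicate block. For the difference between ages, it became 16 with DESeq2, 2 with no filter, 1 with the muscle level as a covariate and 0 to 1 when leaving out 1 replicate. The muscle level difference was -3.85 with a pseudocount of 0.5. Of the list medians, 849 values over the alternatives stayed within the spread and 96 moved. The causes were not tested. The called genes rest on 0 to 14 counts in the FAD4T group.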
